A study of Mus musculus with 8 samples.

Results

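Deep fibroblasts were described in the single-cell RNA libraries of mouse back skin at embryonic day 15 (E15). They were chosen by 2 counts made in each cell. A was the number of superficial genes detected, out of Crabp1, Egfl6, Pth1r, Cldn10 and Twist2, and B was the number of deep genes detected, out of Clec3b, Mfap5, Ly6a, Agtr2 and Igfbp6. A cell was a deep fibroblast when B exceeded A by at least 2. Only gated cells were scored, that is barcodes with at least 1000 genes, at most 10% mitochondrial UMIs (unique molecular identifiers, each standing for 1 captured RNA molecule) and fewer than 3 detected epithelial genes. They also had no UMI of Cdh5, Ptprc, Sox10, Myog or Rgs5, which mark endothelial, blood, glial, muscle and mural cells. The rule found 107 deep fibroblasts among 2582 gated E15 cells, in a series of 8339 barcodes. The wild-type (WT) library held 13 of them, the heterozygous (HET) library 2, and the knockout (KO) libraries 35 and 57. Cells in which A exceeded B by at least 2 are called superficial cells, and 1968 gated cells met that condition. The words deep and superficial name these gene sets, since the libraries hold no record of where a cell lay.

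The dermis of embryonic back skin is built by fibroblasts that diverge as the skin thickens. Fibroblasts beneath the epidermis receive its Wnt and other signals and form the papillary dermis and the hair follicle condensates, while fibroblasts below give rise to reticular dermis, fat precursors and the fascia, a loose connective tissue sheet above the muscle. Fascia and vessel adventitia hold fibroblasts marked by Pi16, Dpp4, Cd34 and Ly6a (also called Sca-1), which make elastic microfibrils and matrix-binding proteins. The targeted gene, Trp63, encodes p63, a transcription factor of the epidermis that fibroblasts do not normally make.

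The groups differed in genotype at Trp63 alone, per the labels. All 4 libraries came from dissected back skin digested with collagenase and trypsin at E15. The control arm joined 1 WT library and 1 HET library with GFP knocked into 1 copy of deltaN p63, and the KO arm held 2 libraries with GFP in both copies. The labels give no strain and do not say that libraries came from separate animals, so the p-values speak of spread among these libraries only, and it may be technical. Another 4 libraries at E13 had the same genotypes. 

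In filtered barcodes Trp63 had 207 UMIs in WT and 100 in HET, equal to 28.0 and 7.95 CPM (UMIs of a gene scaled to the usual common total of UMIs per library or class), and 6 UMIs in each KO library, or 0.379 and 0.298 CPM. It had 0 UMIs in the deep fibroblasts of every library. The 3' tag may lie outside the altered stretch of the gene. Libraries held 8177867 to 21551811 UMIs at E15. The deep fibroblasts summed to 144109 UMIs in WT, 26201 in HET and 574938 and 853004 in the KO libraries, with median depths of 10406, 13100.5, 15652 and 15461 UMIs per cell. A single UMI in 13 WT cells was thus worth more than in KO, and 0 UMIs there allowed up to 20.8 CPM, the value of 3 counts. In the 2 HET cells 3 counts were worth 114.5 CPM, so HET values near or below that rest on very few UMIs. The KO libraries differed from control in other cells too. Barcodes with a Myog UMI, a muscle mark that the gate removes, were 4.16 and 4.13% of filtered barcodes in WT and HET and 11.6 and 16.0% in KO. Summed over whole libraries, the erythroid list was at 3836 and 13865 CPM in control and 28513 and 57367 CPM in KO, and the epithelial list at 5155 and 1299 CPM in control and 776 and 1933 CPM in KO. The part of these differences in the results below was not tested. No barcode sequence of a deep fibroblast was shared between E15 libraries.

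Deep fibroblasts were a larger share of gated cells in both KO libraries than in either control library. They were 3.35% of 388 gated cells in WT (exact 95% binomial interval 1.80 to 5.66%), 0.336% of 596 in HET (0.0407 to 1.21%), 4.96% of 706 in KO 1 (3.48 to 6.83%) and 6.39% of 892 in KO 2 (4.88 to 8.20%). The intervals cover counting error only. The groups did not overlap, but the WT interval overlapped those of both KO libraries, and HET alone stood apart at 2 cells. KO exceeded control by 3.83 percentage points, with means of 5.67% ± 1.01 (SD, n = 2) and 1.84% ± 2.13 (SD, n = 2). The exact permutation test over libraries gave p = 0.333, two-sided, the smallest value that 2 against 2 libraries can give. The number of genes detected depends on depth, so each cell was also thinned to 5000 UMIs, which gave 5.38, 0.346, 7.79 and 9.98% in the same order. Cells between the classes followed the same order, at 16.5 and 8.72% of gated cells in WT and HET and 21.1 and 27.1% in KO 1 and KO 2. Cells with B above A by at least 2 that the gate had removed numbered 1 in WT, 0 in HET, 9 in KO 1 and 27 in KO 2.

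**Figure D1:**
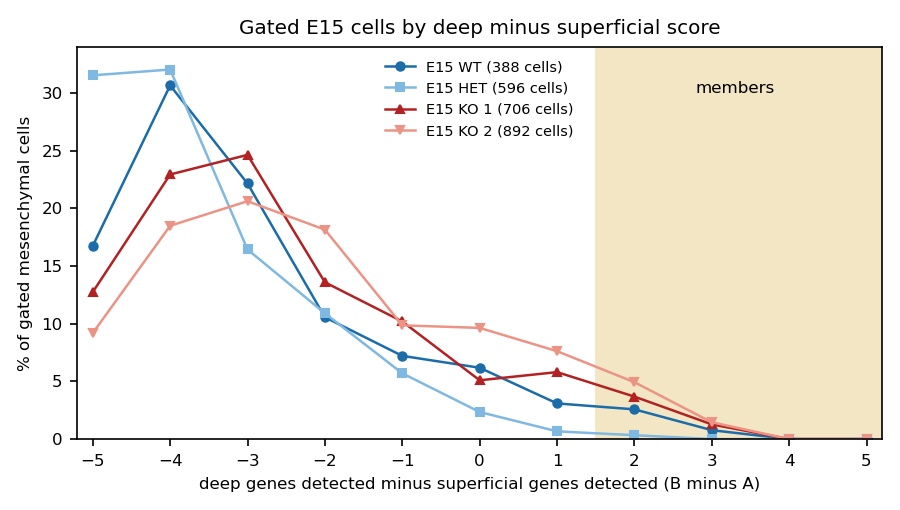
The plot gives the percentage of gated mesenchymal cells (y axis) at each value of B minus A (x axis) in the 4 E15 libraries, with the range of the deep fibroblasts shaded. The 2 KO curves lie above the 2 control curves at the steps of 1 and 2, and no library has a cell above 3.

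At E13 none of 2233 gated cells met the rule (after thinning, 1 cell each did in HET, KO 1 and KO 2). The 4 libraries had 0 of 578, 725, 662 and 268 gated cells, which allows shares of up to 0.519, 0.414, 0.453 and 1.12%, and 4 cells reached a B minus A of 1. The deep genes differed in how far they were present at that age. Summed over gated cells, Clec3b was at 0.360, 0.318, 0.506 and 1.76 CPM in E13 WT, HET, KO 1 and KO 2, while Agtr2, the type 2 angiotensin receptor, was at 136, 114, 144 and 179 CPM. Age was not tested here.

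The labelled markers were present in the deep fibroblasts, as the rule required of 4 of the 5. Mfap5, a glycoprotein of elastic microfibrils (GRCm38 chromosome 6, 122505845 to 122529290), was at 1596 and 1298 CPM in WT and HET and 661 and 1090.3 CPM in KO 1 and KO 2. Superficial cells of the same libraries had 8.89, 2.74, 14.0 and 18.6 CPM of it. Clec3b, which encodes the plasminogen-binding protein tetranectin (chromosome 9, 123150946 to 123157432), was at 1846, 992, 788 and 898 CPM, against 24.4, 11.6, 19.2 and 32.1 CPM. Ly6a, the surface antigen Sca-1 (chromosome 15, 74994877 to 74998031), was at 499.6, 114.5, 419 and 512 CPM against 2.28, 0.747, 4.66 and 8.16 CPM. Igfbp6, a binding protein of insulin-like growth factor 2 (chromosome 15, 102144362 to 102149511), was at 389, 38.2, 318 and 315 CPM, where the HET value is 1 UMI. Dpt, which encodes the matrix protein dermatopontin (chromosome 1, 164796644 to 164824266), was the 1 marker that the rule did not use. Dpt was at 1145, 916, 669.6 and 764 CPM in deep fibroblasts and at 148, 112, 190.2 and 261 CPM in superficial cells. Deep fibroblasts were thus above superficial cells for each marker in every library, as a description of cells chosen on most of these genes.

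Detection was uneven among the 107 cells. Mfap5 and Agtr2 were each detected in 105 of them, Clec3b in 101, Dpt in 98, Igfbp6 in 92 and Ly6a in 88. All 5 deep genes were detected in 76 cells (71.0%). Most deep fibroblasts also had UMIs of superficial genes, since 56 cells had 3 of the 5 and only 3 cells had none. Crabp1, a cytoplasmic binder of retinoic acid, and Twist2, a dermal transcription factor, each had a UMI in 88 or 89 cells, Pth1r in 45, Egfl6 in 29 and Cldn10 in 1. The margin over the threshold was small, with 82 cells at a B minus A of exactly 2 and 25 at 3.

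RefSeq promoter windows were at hand for 3 of the markers, Dpt, Igfbp6 and Agtr2, and they are printed because these genes mark the same cells. Each line gives the 150 bases before the annotated start, 5′ to 3′ on the plus strand of GRCm38.p6, with capitals at any match to 2 common promoter motifs, the TATA box (TATAAA) and the CAAT box of many promoters (CCAAT). The start is the RefSeq one, which can differ from the gene coordinates given above. The windows are chr1:164796513-164796662 for Dpt, chr15:102144036-102144185 for Igfbp6 and chrX:21484474-21484623 for Agtr2.
Dpt: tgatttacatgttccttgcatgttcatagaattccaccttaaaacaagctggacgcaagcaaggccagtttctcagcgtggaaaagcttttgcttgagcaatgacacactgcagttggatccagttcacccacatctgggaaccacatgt
Igfbp6: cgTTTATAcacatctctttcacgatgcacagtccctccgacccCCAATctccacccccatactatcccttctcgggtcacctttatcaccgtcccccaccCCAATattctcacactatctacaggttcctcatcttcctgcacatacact
Agtr2: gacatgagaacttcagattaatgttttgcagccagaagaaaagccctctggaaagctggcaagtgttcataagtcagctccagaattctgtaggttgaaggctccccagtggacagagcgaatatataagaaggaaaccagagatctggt
Igfbp6 had the letters CCAAT with the first base 107 and 50 bases before the start, and TATAAA on the other strand with its first base 148 before. Only these exact letters were searched, so variants such as tatataa in the Agtr2 line stay in lower case. In the full 300 bases from 250 before to 50 after the start, searched on both strands, Dpt held 1 match to TATAAA and Agtr2 held 1 to CCAAT. Of 32851 such mouse windows, 13.6% held TATAAA and 37.4% CCAAT. These are matches of letters and not evidence of binding.

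Beyond the genes of the rule, deep fibroblasts carried a broad programme of secreted and surface proteins. The ratios compare deep fibroblasts with superficial cells of the same library, on the scale of log2(CPM + 10), which understates low genes, and they carry no test because the rule chose both classes on these cells. Of 2754 genes with at least 50 CPM in deep fibroblasts, 141 were over 2-fold higher in all 4 libraries. Of 2706 genes with at least 50 CPM in superficial cells, 50 were below 1/2 in all 4. Ranked by the least extreme of the 4 libraries, the genes after Mfap5 and Clec3b were the secreted guidance factor Sema3c, the matricellular protein gene Nov, the annexin Anxa3 and the kinase Nrk. Sema3c was at 576, 305, 419 and 319 CPM in WT, HET, KO 1 and KO 2 against 6.38, 3.11, 8.30 and 9.23 CPM in superficial cells. Nov was at 382, 229, 402 and 327 CPM against 11.4 CPM or less. Signalling genes among the 25 with the highest ratios were the Wnt ligand Wnt2, the heparin-binding growth factor Ptn and the IGF-binding protein gene Igfbp4. Wnt2 was at 243, 343.5, 243.5 and 170.0 CPM against 1.37 to 7.76 CPM. Ptn was at 2429, 1412, 2149.8 and 2278 CPM against 92.6 to 287 CPM. Surface and matrix genes among them were Pdpn, which encodes podoplanin, the peptidase inhibitor Pi16, the metalloprotease Adamts5 and the matrix protein gene Spon2. Itm2a, a membrane protein gene, was at 3331, 3015, 3294 and 4084 CPM against 232, 191, 404 and 569 CPM. Plagl1, an imprinted transcription factor, was at 1277, 1298, 823 and 759.7 CPM, against 112.9 CPM or less in superficial cells. Tmeff2, Pamr1, Akap12, Zfhx3, Efhd1, Cbln2, Lrrn4cl and Zcchc5 completed the group, with Kcnj8, a potassium channel gene that is also a pericyte marker. With HET set aside, 19 of these 25 genes stayed among the 25.

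The lowest ratios belonged to genes of the superficial cells. Bcl11b, a transcription factor, was at 13.9, 0, 15.7 and 10.6 CPM in deep fibroblasts against 220.1 to 235 CPM. Wif1, a secreted Wnt inhibitor, was at 6.94, 0, 6.96 and 4.69 CPM against 224, 210.1, 88.5 and 159 CPM. Sfrp5, another secreted Wnt inhibitor, and Apela, a peptide ligand, were at 5.86 CPM or less. Irx1, Stmn2, Ass1, Lix1 and Emp2 followed, together with the rule genes Egfl6, Crabp1 and Cldn10.

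**Figure D2:**
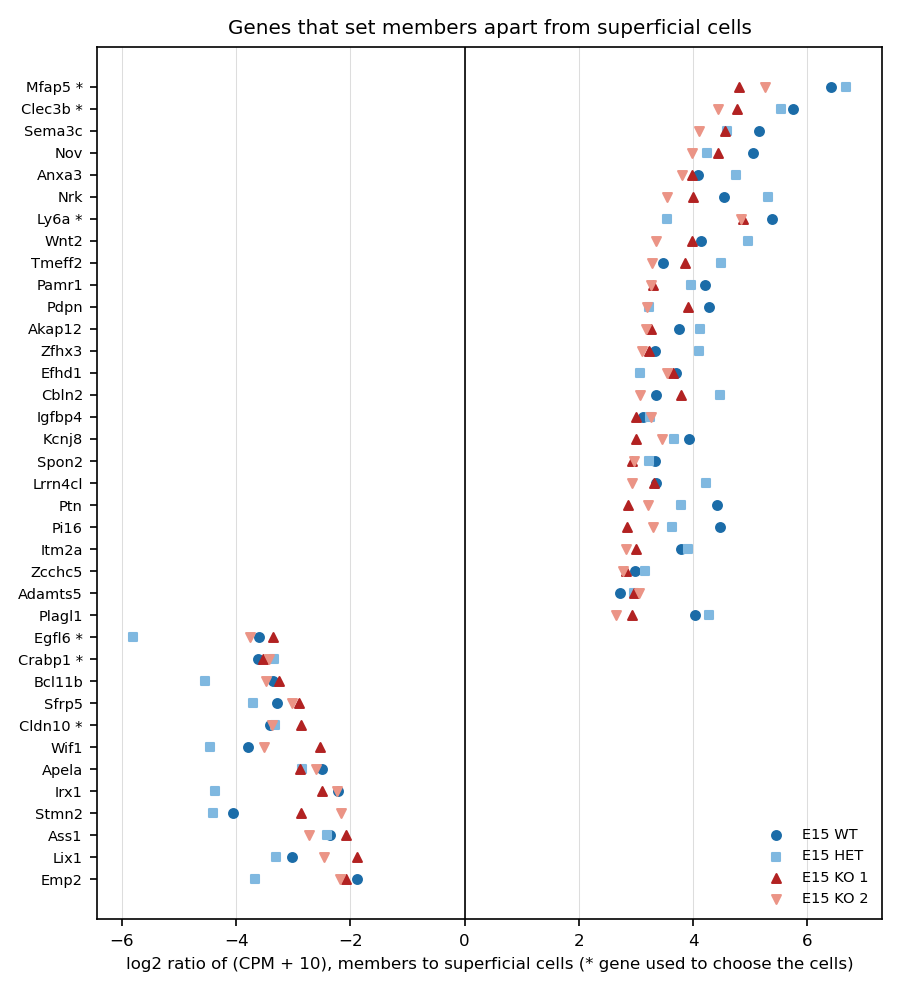
Each row is a gene and each point the log2 ratio of (CPM + 10) between deep fibroblasts (labelled members) and superficial cells of 1 E15 library, with asterisks at genes of the rule. The upper 25 genes lie above 2.6 and the lower 12 below -1.8 in all 4 libraries.

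Gene lists by function were used to describe the families in the programme. The lists were chosen with earlier results of these data known, so the counts are a description and support no identity. Genes with at least 20 CPM were counted in the 3 libraries with at least 10 deep fibroblasts, WT and both KO. Of 28 fascia and adventitial genes, 23 were over 2-fold higher in all 3, where 3.89% of 6165 genes were. Genes of the rule made up 4 of the 28, and these 4 are all among the 23. Anxa3, Efhd1, Wnt2 and Adamts5 on this list were also among the 25 genes ranked above. Among the others, Fbn1, the main microfibril protein, was at 1027, 684 and 596 CPM in WT, KO 1 and KO 2 against 101, 99.3 and 116 CPM in superficial cells. Col14a1, a fibril-associated collagen gene, was at 493, 482 and 365 CPM against 31.0, 73.4 and 77.5 CPM. Dpp4, a surface peptidase of fascia progenitors, was at 146, 106 and 136 CPM against 5.08 CPM or less. Of 19 upper dermis genes, 10 were below 1/2 in all 3 libraries, where 1.78% of all genes were. The list holds the 5 superficial genes of the rule, and all 5 are among the 10, so they support nothing. Dkk2, a Wnt inhibitor on that list, ran the other way, at 111, 191 and 85.6 CPM against 21.8 CPM or less.

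Matrix genes were split by family. Of 20 elastic fibre genes, 13 were higher in all 3 libraries and 1 was lower, Fbln1, where 26.3% of all genes were higher and 30.2% lower. The 13 include Mfap5, a gene of the rule, which supports nothing here. Of 21 collagen and processing genes, 12 were higher and 4 lower, with Col5a3 at 180.4, 95.7 and 77.4 CPM against 2.73 CPM or less and Col6a3 at 285, 195 and 225 CPM against 594, 524 and 475 CPM. Of 10 genes of the IGF system, 8 were higher, among them the ligand gene Igf2 and the binding protein gene Igfbp3, while Igfbp2 and Igfbp5 were lower. Dlk1, a Notch-like protein gene of fat precursors, was at 7459.6, 7204 and 7707 CPM against 1511, 2002 and 2143 CPM. The list of fat precursor and lower dermis genes was mixed, with 4 of 10 genes higher and 5 lower.

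Of 23 transcription factors of the mesenchyme, 13 were higher and 9 lower in deep fibroblasts in all 3 libraries. Gata6 was at 97.1, 43.5 and 44.5 CPM in WT, KO 1 and KO 2 against 1.47 CPM or less, and Klf4 at 389, 664 and 441 CPM against 64.5 CPM or less. Among the lower ones, Tcf4 was at 159.6, 139 and 141 CPM against 618, 491.5 and 436 CPM, and Prrx2 at 41.6, 50.4 and 42.2 CPM against 185, 95.6 and 69.3 CPM. Prrx1, a general mark of limb and body wall mesenchyme, was at 305, 259 and 232 CPM against 319.9, 343 and 339 CPM in superficial cells. The readers of Wnt signalling that could be assessed were low. Of 12 listed genes 5 reached 20 CPM, and all 5 were lower in all 3 libraries, where 30.2% of all genes were. Lef1 was at 6.94, 3.48 and 1.17 CPM against 77.0, 17.9 and 19.3 CPM, and these values are 1, 2 and 1 UMIs in deep fibroblasts. Genes of cell division were lower too, all 21 of the G2 and M phase list and 13 of 18 of the S phase list, against the same 30.2%. After thinning to 5000 UMIs, cells with at least 3 of the G2 and M genes were 41.7, 29.4 and 29.8% of deep fibroblasts and 45.4, 35.1 and 41.9% of superficial cells.

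Markers of several other cell types were near 0 in deep fibroblasts and those of others were not. Summed over each list, the endothelial, cartilage, tendon, melanoblast, glial, neuron and adipocyte lists were at 0 to 50.4 CPM in WT and both KO libraries. The muscle list was at 48.6 CPM in WT and 165 and 43.4 CPM in KO, against 18.9, 74.1 and 39.6 CPM in superficial cells of the same libraries. The macrophage list was at 27.8 CPM in WT and 95.7 and 144 CPM in KO, against 99.1, 136 and 149 CPM in superficial cells. The mural list, which holds Kcnj8, was at 298 CPM in WT and 210.5 and 278 CPM in KO, against 39.9, 49.5 and 64.6 CPM in superficial cells. All 3 mural genes with at least 20 CPM were higher in deep fibroblasts in all 3 libraries, where 26.3% of all genes were. Of these, 2 were over 2-fold higher. The epithelial list was at 1034 CPM in WT and 148 and 328 CPM in KO, against 1665, 125 and 292 CPM in superficial cells. For the mast and neutrophil list the values were 76.3, 254 and 1894 CPM against 301, 625 and 627 CPM. For the erythroid list they were 3199, 21301 and 37906 CPM against 4841, 30243 and 34004 CPM.

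Genes that the rule did not use followed the score in different shapes. Sema3c and Nov turned on over a short stretch. In KO 1, Nov was at 8.91 CPM at a B minus A of -2, 35.4 at -1, 146 at 0 and 400.5 at 1, and in WT it went from 4.52 at 0 to 237 at 1. Dlk1 climbed over the whole range, from 1138 CPM at -5 through 2437 at -1 to 8190 at 3 in WT (8052.6 in KO 2 at 3). Lum, a proteoglycan of collagen fibrils, was at 1695 CPM at -5, 497 at 0 and 1649 at 3 in WT, where the last value is 30 UMIs in 3 cells. In KO 1 it was at 2532, 962 and 949 CPM at the same steps and did not return, and in KO 2 at 3541, 1028 and 1656 CPM. Tnc, the matrix protein tenascin-C, was highest in the middle of both KO libraries, at 127 and 71.5 CPM at 0 against 2.81 and 3.17 at -5. Just outside and just inside the threshold, at a B minus A of 1 and 2, Dpt was at 598 and 1112 CPM in WT, 672 and 674 in KO 1 and 619.7 and 733 in KO 2. Fbn1 was at 447 and 1017 CPM in WT, 636 and 698 in KO 1 and 586 and 549 in KO 2. For Dpt and Fbn1 the threshold thus fell on a step in WT, where 12 cells lay at 1 and 10 at 2, and not in KO, where 41 and 68 cells lay at 1 and 26 and 44 at 2. Other genes had no such step in WT, since Dlk1 went from 6589 to 7354 CPM and Igf1, a growth factor gene, from 291 to 159 CPM.

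**Figure D3:**
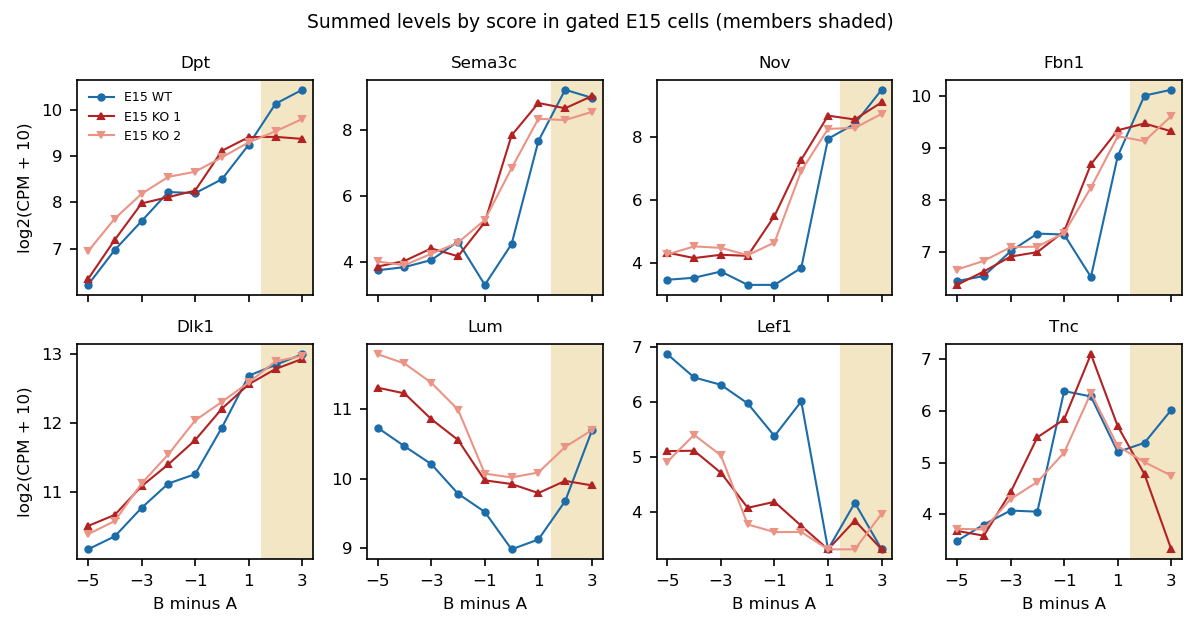
Summed levels as log2(CPM + 10) (y axes) of 8 genes outside the rule are plotted against B minus A (x axes) in WT and both KO libraries, with the deep fibroblasts shaded. Dpt, Sema3c, Nov, Fbn1 and Dlk1 are high at the right, Lef1 is low there, Lum falls from the left and is higher again at 3 in WT and KO 2 only, and Tnc is highest near 0 in both KO libraries.

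Single deep fibroblasts varied more than the sums show. In KO 2 the 57 cells ranged from 0 to 3867 CPM in Clec3b (median 928), from 0 to 6860.4 in Ly6a (median 251) and from 0 to 2614 in Agtr2 (median 1014). Pi16 was detected in 29 of those 57 cells and in 7 of 13 WT cells. After thinning to 5000 UMIs, Pi16 was detected in 41.7, 29.4 and 47.4% of deep fibroblasts in WT, KO 1 and KO 2, and Dpp4 in 41.7, 35.3 and 50.9%, so only part of the cells showed these fascia markers at this depth. In superficial cells both were at 2.43% or less. Among 2281 genes, the ratio of variance to mean over thinned cells was highest for haemoglobin genes in both KO libraries. Next were Malat1, Meg3, Sparc, Itm2a and Col3a1. Of the deep fibroblasts, 3 in the KO libraries had over 5% haemoglobin UMIs, up to 81.0%, and 2 in KO 2 had over 1% mast and neutrophil UMIs, up to 7.70%.

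KO was then compared with control within the deep fibroblasts. HET had only 2 cells, so the fit set 1 WT library against 2 KO libraries with 1 residual degree of freedom, and the lone control was assumed to vary like the KO libraries. edgeR's quasi-likelihood test with Benjamini-Hochberg adjustment called 98 of 7133 genes (1.37%), 44 higher in KO (0.617%) and 54 lower (0.757%), at an adjusted p under 0.05. Of the 98, 13 were on lists of other cell types. With the 2 HET cells as a second control the count was 7, namely Hbb-bs, Hbb-bt, Hba-a1, Hba-a2, Krt14, Lgals7 and Pcdh10. The calls below therefore rest on 13 WT cells, and HET values are given beside them without entering the test. WT lay outside the KO range for 97 of the 98 called genes, and for 5836 of all 7133 genes, so lack of overlap between the groups carries little weight here. How many of all genes separate with HET included was not counted, so such separation is only a description wherever it is given below.

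Matrix genes were among those lower in KO. Lox, the enzyme that crosslinks collagen and elastin, was at 680.0 CPM in WT and 496 in HET, and at 277 and 256 in KO 1 and KO 2. Both controls lay above both KO libraries, and the log2 fold change was -1.30 ± 0.25 (SE, edgeR quasi-likelihood test, adjusted p = 0.00013). Loxl1, a related elastin crosslinker, was at 798 and 611 CPM in control and 428 and 385 in KO (-0.92 ± 0.24, edgeR adjusted p = 0.0183). Fn1, which encodes fibronectin, was at 1187 and 1183 CPM in control and 635 and 673 in KO (-0.80 ± 0.23, edgeR adjusted p = 0.0365). Eln, elastin itself, was at 437 and 496 CPM in control and 132 and 300.1 in KO (-0.93 ± 0.27, edgeR adjusted p = 0.0428). Of the 2 HET cells, 1 held all 13 Eln UMIs, and 1 held 12 of the 13 Lox UMIs. Col3a1, a major fibrillar collagen, fell by 0.73 on the log2 scale (edgeR adjusted p = 0.00929), with 9729 and 8626 CPM in control and 5851 and 5445 in KO. All 5 of these genes had control and KO libraries that did not overlap, HET included. The share of all genes that separate in this way was not counted. Fbln5, an elastic fibre organiser, and Col5a1, a regulator of fibril width, were also lower by this test. Of 20 elastic fibre genes, 5 were lower (Eln, Fbln5, Lox, Loxl1 and Mfap5, which the rule selected on and so supports nothing) and 1 higher (Mfap4), with a median log2 fold change of -0.72 against 0.04 over all genes, and 18 of 20 values were negative. Mfap4, a microfibril-associated protein gene, was at 229 CPM in WT but 1107 in HET, and at 205 and 688 in KO, so that KO 1 was below WT and the call rested on KO 2. Of 20 collagen genes, 2 were lower, and 15 values were negative. Over all 7133 genes, 3381 values were negative and 0.757% were called lower. Leaving out the haemoglobin-rich and mast-rich cells left 1 of the 5 elastic fibre calls, with a median of -0.69 and 18 of 20 values negative. After thinning to 5000 UMIs the elastic median was -0.33, with 18 of 20 values negative, and the collagen median -0.27, with 14 of 20 negative. With the 2 HET cells added no elastic fibre gene passed, and the median was -0.56 with 15 of 19 values negative. DESeq2 called none of the elastic fibre list, with a median of -0.73. In cells with a B minus A of at least 1, HET included, no elastic fibre or collagen gene passed, the elastic median was -0.16 with 12 of 20 values negative, the collagen median was -0.07, and Lox was at -0.45 (edgeR adjusted p = 0.631). Without WT, with the 2 HET cells as the only control, the elastic median was 0.23, with 10 of 19 values positive, and the median over all genes 0.62.

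Measures of RNA quality differed between WT and KO as well. Deep fibroblasts of WT had a median mitochondrial share of 3.50% and 3144 genes per cell, against 2.44 and 2.10% and 3909 and 3829 genes in KO, and mt-Nd3, mt-Co1, AY036118 and Gm42418 were called lower. The 2 HET cells had 2.62% and 3492 genes. AY036118 was at 354 CPM in WT, 76.3 in HET and 90.4 and 96.1 in KO, so HET was below both KO libraries, on 2 UMIs. Reads of AY036118 and Gm42418 can be shared with ribosomal RNA, so their counts are uncertain. The part of these measures in the falls was not tested.

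The genes of the rule and the marker Dpt behaved differently from each other. As a description, since the rule selected on them, Clec3b had a log2 fold change of -1.07 and Mfap5 of -0.80, from the CPM given above, while Ly6a (-0.04), Igfbp6 (-0.24) and Agtr2 (-0.0023) had nearly the WT level. Dpt, which the rule did not use, had a log2 fold change of -0.62 ± 0.23 that did not pass (edgeR adjusted p = 0.189). Pi16 was at 236 and 114.5 CPM in control and 67.8 and 123 in KO (-1.21 ± 0.33, edgeR adjusted p = 0.0232), and HET lay within the KO range. Of its 34 WT UMIs, 18 (52.9%) lay in 1 of 13 cells, and HET had 3 UMIs. The growth factor receptor Igf2r (-1.14), and Nfib (-0.95) and Nfia (-1.23), transcription factors of the nuclear factor I family, were lower by the same test. For these 3 genes HET was at 114.5, 229 and 38.2 CPM, below both KO libraries, whereas WT was at 326, 555 and 347 CPM, above both. The HET values are 3, 6 and 1 UMIs, too few to place HET firmly.

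Genes of the immediate-early response were among those higher in KO. Junb, a subunit of the AP-1 factor, was at 159.6 and 114.5 CPM in WT and HET and 419 and 456 in KO (1.51 ± 0.32, edgeR adjusted p = 0.000786). Ier2 was at 132 and 229 CPM in control and 341 and 395 in KO (1.54 ± 0.34, edgeR adjusted p = 0.0013). Fos, the partner of Junb, was at 305 and 496 CPM in control and 626 and 512 in KO (0.95 ± 0.28, edgeR adjusted p = 0.049). In HET, Junb had 3 UMIs and Ier2 6, and 1 of the 2 cells held 12 of the 13 Fos UMIs. Control and KO did not overlap for these 3 genes, though HET and KO 2 lay close for Fos. Here too the share over all genes was not counted. Of 14 immediate-early and heat shock genes tested, 3 were higher and none lower, and 13 values were positive, with a median of 0.67. Over all 7133 genes, 3752 values were positive and 0.617% were called higher. After thinning to 5000 UMIs the median of the list was 0.49, with 12 of 13 values positive. Socs3, a feedback inhibitor of cytokine signalling, and Dusp1, a phosphatase of MAP kinases, were called higher as well. The chemokine gene Cxcl1 and the RNA-binding protein gene Zfp36 had 0 UMIs in WT and HET cells. Against 3 counts in WT, KO was at least 2.05-fold higher for Cxcl1 and at least 2.66-fold higher for Zfp36, and these bounds are small. In KO 1, 79.3% of the 29 Cxcl1 UMIs lay in 1 of 35 cells. Eno1 and Gapdh, enzymes of glycolysis, were higher by 1.74 and 0.95 on the log2 scale (edgeR adjusted p = 0.000546 and 0.0134), 2 of 12 hypoxia and glycolysis genes tested. For Eno1, HET at 267 CPM (7 UMIs) lay within the KO range of 238 to 391 CPM. In cells with a B minus A of at least 1, HET included, neither Junb nor Fos nor Ier2 passed, and 9 of 15 immediate-early values were negative.

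Transcripts of other cell types were among the calls. Hbb-bt, a haemoglobin gene, was at 298 and 725 CPM in WT and HET and 3120.3 and 5410.3 in KO, and the 4 haemoglobin genes Hba-a1, Hba-a2, Hbb-bs and Hbb-bt were called higher. Without the haemoglobin-rich and mast-rich cells, Hbb-bt was still 1.47 higher on the log2 scale (edgeR adjusted p = 0.00695), against 3.89 with them. The mast protease genes Cma1, Tpsb2 and Cpa3 were called higher, and 89.1% of the Cma1 UMIs in KO 2 lay in 2 cells. Krt14, the keratin of basal epidermis, had 17 UMIs in WT cells, 2 in HET and 0 in KO, at least 56.2-fold lower in KO against 3 counts. After thinning, Krt14 was detected in 41.7% of WT deep fibroblasts, in 48.1% of WT superficial cells and in 77.8% of 9 WT barcodes with a Cdh5 UMI, a mark of endothelium. In HET it was detected in 1 of 2 deep fibroblasts, in 41.9% of superficial cells and in 37.8% of 37 barcodes with a Cdh5 UMI. The source of these Krt14 UMIs was not tested. Krt1, Krt10, Krtdap and Lgals7 were called lower with Krt14. Some falls rested on 1 WT cell: Hist1h2ap, a histone gene of S phase, had 97.1% of its 102 WT UMIs in 1 of 13 cells, Pcna had 77.8% of its 18 UMIs in 1 cell, and Pcsk1n had all 19 in 1 cell. These were named after their values were seen.

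**Figure D4:**
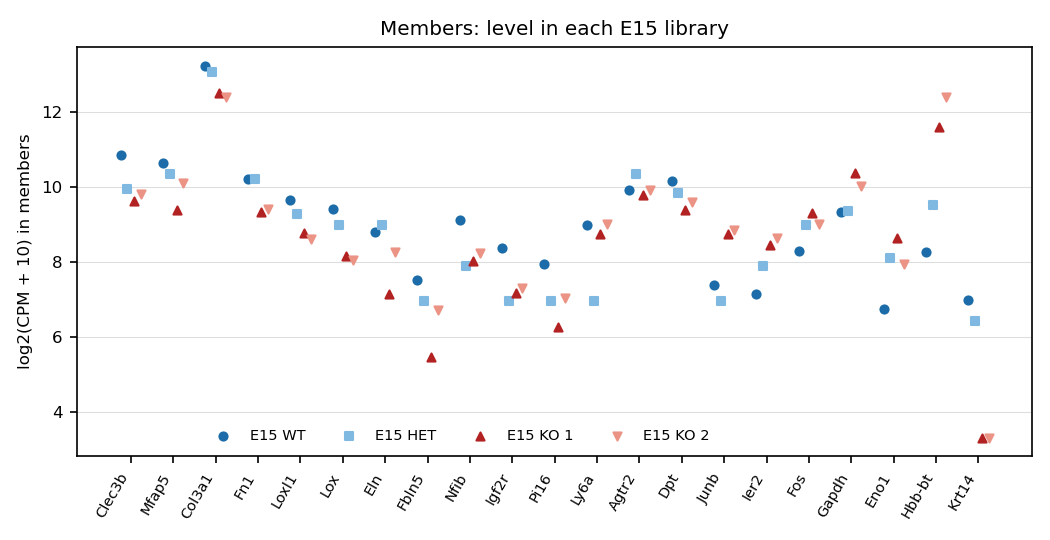
Points give log2(CPM + 10) (y axis) in the deep fibroblasts of each E15 library for 21 genes (x axis), with WT and HET in blue and KO in red. Both blue points lie above both red points for Col3a1, Fn1, Loxl1, Lox and Krt14, and below them for Junb, Ier2 and Hbb-bt.

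The KO effect differed between deep fibroblasts and superficial cells by test, and matrix genes were among those that did. A fit of both classes in WT and both KO libraries, with library as a block and 1 residual degree of freedom, tested whether KO against WT differed between the classes. edgeR's quasi-likelihood test with Benjamini-Hochberg adjustment called 66 of 11573 genes (0.57%), 29 with a more positive KO effect in deep fibroblasts (0.251%) and 37 with a more negative one (0.32%). The median difference over all genes was 0.20 on the log2 scale, and 0.02 when library totals replaced TMM scaling, so values are to be read against that shift. The split was 45 positive and 116 negative with library totals, and 55 and 33 with the 2 HET cells added. Postn, the matrix protein periostin, had the smallest p. It was at 1811 and 1183 CPM in deep fibroblasts of WT and HET and at 909.7 and 1202 in KO, but at 174 and 110.0 CPM in superficial cells of WT and HET and at 392 and 506 in KO. The difference of the KO effects was -1.96 ± 0.20 (SE, edgeR adjusted p = 5.24e-06). Lox showed the same crossing, with 143 and 106 CPM in control superficial cells and 233 and 250.2 in KO superficial cells, and a difference of -1.93 ± 0.24 (edgeR adjusted p = 8.69e-05). Eln was at 83.4 and 83.4 CPM in control superficial cells and 259.7 and 243 in KO, and its difference was -2.44 ± 0.38 (edgeR adjusted p = 0.00107). For Postn, Lox and Eln both controls were below both KO libraries in superficial cells. In deep fibroblasts both controls were above both KO libraries for Lox and Eln, while for Postn HET lay within the KO range. The HET values of Lox and Eln there rest mostly on 1 cell each. Eln in KO 1 was lower in deep fibroblasts than in superficial cells.

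Other genes with the smallest p followed Postn, with 1 exception. Fn1 was at 206 and 180.4 CPM in control superficial cells and 379 and 371 in KO (difference -1.54). Cd34, a surface sialomucin of fascia fibroblasts, was at 60.6 and 56.1 CPM there in control and 127.5 and 177 in KO, while deep fibroblasts had 631 and 343.5 in control and 355 and 369 in KO (-1.94). Prss35 (-5.02), Nfib (-1.82), Fibin (-2.26) and the protease gene Htra3 (-1.83) had differences of the same sign. Hspb1, a small heat shock protein gene, went the other way (3.25), and here the WT superficial cells stood apart at 143 CPM, with HET at 26.9 and KO at 19.8 and 18.1. Of the 20 elastic fibre genes, all 20 differences were negative and 4 passed (Eln, Lox, Loxl1 and Mfap5, again a gene of the rule), with a median of -0.88. Of 23 collagen genes 21 were negative and 4 passed (Col1a2, Col3a1, Col5a1, Col14a1), with a median of -0.56. Over all 11573 genes, 4899 differences were negative and 6674 positive. Of 15 immediate-early and heat shock genes 14 were positive and 4 passed (Junb, Egr1, Ier2, Hspb1), with a median of 1.18, but with a B minus A of at least 1 and HET included 9 were negative, the median was -0.14, and 2 were called positive and 1 negative. Among proteoglycans Aspn, Dcn and Ogn were negative, and in the IGF system Igf2 and Igf2r. With the 2 HET cells added the count was 88 and 52 of the 66 genes were called again, among them Postn, Lox, Eln, Fn1, Cd34, Nfib and Fibin. With HET added and KO 1 left out, 5 genes were called, with KO 2 left out 12, and with WT left out 112, of which 24 were among the 66. In that last fit the control side was 2 cells the elastic median was 0.05 with 8 of 20 values negative, and the median over all genes was 5.98.

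**Figure D5:**
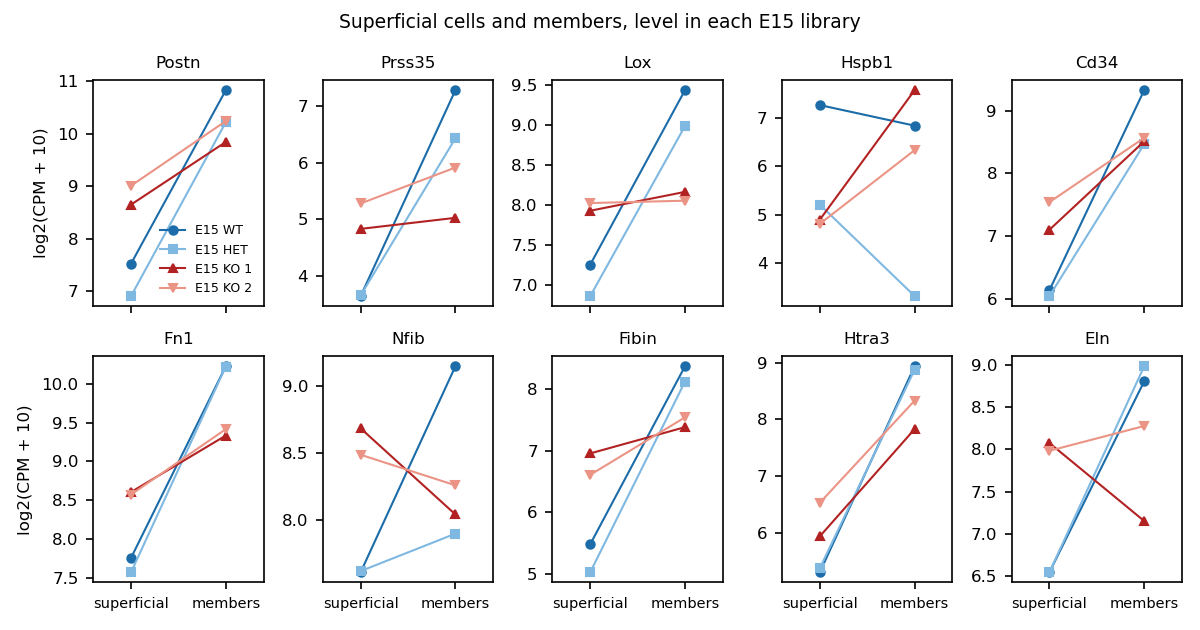
For the 10 genes with the smallest p of the difference, each line joins log2(CPM + 10) (y axes) in superficial cells and in deep fibroblasts (labelled members) of 1 E15 library. The WT and HET lines rise more steeply than both KO lines for the 9 genes other than Hspb1, and for Hspb1 the KO lines rise while the control lines fall.

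The programme was also followed in all gated cells, where HET contributes fully and no class is chosen. In such sums more cells of a type and more RNA per cell cannot be told apart. edgeR's quasi-likelihood test with Benjamini-Hochberg adjustment on 2 control and 2 KO libraries, with 2 residual degrees of freedom, called 549 of 12567 genes (4.37%), 312 higher in KO (2.48%) and 237 lower (1.89%). Of the 25 programme genes, which were chosen on these libraries, 13 were called higher. Nov was at 20.7 and 5.67 CPM in WT and HET and 72.1 and 71.9 in KO (log2 fold change 2.57 ± 0.44, edgeR adjusted p = 0.0313). Anxa3 was at 10.1 and 6.72 CPM in control and 39.4 and 39.6 in KO (2.28 ± 0.19, edgeR adjusted p = 0.0061). Itm2a was at 387 and 244 CPM in control and 857 and 1351 in KO (1.82 ± 0.28, edgeR adjusted p = 0.0251). Control and KO did not overlap for these genes, and HET was the lowest library for each. The share of all genes without overlap in these sums was not counted. Of the markers, Agtr2 passed at 232 and 163 CPM in control and 340.0 and 419 in KO (0.96 ± 0.19, edgeR adjusted p = 0.0434). Dpt (1.01 ± 0.25, edgeR adjusted p = 0.072), Igfbp6 (2.45 ± 0.59, 0.066), Ly6a (2.55 ± 0.64, 0.0724), Mfap5 (2.06 ± 0.73, 0.166) and Clec3b (1.45 ± 0.56, 0.193) did not pass, although both KO libraries exceeded both controls for each. On the superficial side 2 of 12 genes were called lower, the Wnt inhibitor Wif1 (-1.20 ± 0.21, edgeR adjusted p = 0.0323) and the neuronal gene Stmn2 (-1.81 ± 0.33, edgeR adjusted p = 0.0355). The fascia list had 14 of 30 genes higher and none lower, with a median of 1.41, and 29 of 30 values were positive. Over all 12567 genes, 6252 values were positive. With KO 1 left out, 0 of the 25 programme genes and 3 genes in all were called higher or lower, while 2013 genes had an unadjusted p under 0.05. The muscle list had 3 of 8 genes higher in KO in the same sums (Actc1, Acta1, Tnnt2).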

How the data were processed

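Single cells of E15 back skin were profiled by 10x 3' RNA sequencing. The deposited matrices hold UMI counts per gene and barcode. Cell Ranger, Seurat and mm10 are named in the submitters' processing notes, without versions. Barcodes were filtered and gated, and the deep fibroblasts chosen, as the report states. No doublet caller was run. The members and gene lists were chosen with earlier results of these data known. Counts were summed per library and class and tested with edgeR 4.0.16 (limma 3.58.1, R 4.3.3): genes passed filterByExpr, TMM scaling was used, glmQLFit and glmQLFTest gave p, and p was adjusted by Benjamini-Hochberg over all genes tested. Calls had an adjusted p under 0.05, and the SE is the log2 fold change over the square root of F. DESeq2 1.42.0 was an alternative. The design had set 2 control against 2 KO libraries, but a library needed 10 deep fibroblasts to enter a fit, which left HET out. Named genes were the 25 and 12 with the most extreme least ratio, list genes that passed, and the 10 smallest p of the difference, and others named were chosen after their values were seen. The fit was tested on simulated data: of genes changed 8-fold it recovered 76.6%, and of genes changed 4-fold 26.8%, among 6945 genes in deep fibroblasts. The simulated counts had the same fixed spread for every gene and library, and only genes above a count floor were changed. Single cells that dominate a sum were not simulated, so recovery in the real sums was not measured.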

Additional observations from a re-analysis of the deposited data

Results flagged for a closer look

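The difference of the KO effect between deep fibroblasts and superficial cells passed edgeR's quasi-likelihood test with Benjamini-Hochberg adjustment in 66 genes, and the 10 with the smallest p are given here as log2 differences, from 1 WT and 2 KO libraries. Those with a lower KO effect in deep fibroblasts were Postn (-1.96), Prss35 (-5.02), Lox (-1.93), Cd34 (-1.94), Fn1 (-1.54), Nfib (-1.82), Fibin (-2.26), Htra3 (-1.83) and Eln (-2.44). Hspb1 had a higher one (3.25). In superficial cells the first 9 were higher in both KO libraries than in WT and HET, and in deep fibroblasts they were lower in both KO libraries than in WT. The 2 HET deep fibroblasts lay above both KO libraries for Prss35, Lox, Fn1, Fibin, Htra3 and Eln. They lay within the KO range for Postn and below both KO libraries for Cd34 and Nfib. Their UMIs were few, with 2 for Prss35, 6 for Nfib, 7 for Fibin and 9 for Cd34. Postn, Cd34, Fibin and Htra3 did not pass within deep fibroblasts alone.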

How the results depend on the processing

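Within deep fibroblasts 44 genes were higher and 54 lower in KO. The higher and lower counts were 3 and 6 with DESeq2, 35 and 70 with library totals alone, 52 and 36 with no filter on low counts, 10 and 16 after thinning to 5000 UMIs, 4 and 3 with the 2 HET cells, 4 and 10 at a B minus A of at least 1 with HET, and 11 and 25 without the haemoglobin-rich and mast-rich cells. With HET kept in they were 8 and 6 without KO 1, 5 and 1 without KO 2, and 25 and 1 without WT. The difference between classes, called in 66 genes, was called in 23 with DESeq2, 161 with library totals alone, 126 with no filter, 168 at a B minus A of at least 1 with HET, 138 without the haemoglobin-rich and mast-rich cells, and 5, 12 and 112 with HET kept in and KO 1, KO 2 or WT left out. Of the 25 programme genes, 13 were called over all gated cells, 25 with no filter and 0 to 25 with 1 library left out. The KO minus control share of 3.83 points was 0.98 at a B minus A of at least 3, 8.66 at 1, 6.02 after thinning, and 2.32 to 5.34 with 1 library left out.

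Some single genes changed sign. Without control replicate 1, with the 2 HET cells as the only control, these were AY036118 (0.71), Col5a1 (0.19), Dpt (0.065), Hist1h2ae (6.23), Hist1h2ap (9.27), Igf2r (0.72), Krtdap (1.10), Mfap4 (-0.88), Nfia (2.30), Nfib (0.69), Pbk (6.19), Pcna (6.90), Pi16 (0.19), Spry2 (6.08), Tram2 (5.97) and Vamp4 (-0.82), and in the difference between classes Col5a1 (0.053), Dcn (0.059), Igf2r (0.52), Limch1 (9.20) and Nfia (2.21). At a B minus A of at least 1 with HET they were Cma1 (-1.07), Cpa3 (-0.48), Fcer1g (-0.21), Fos (-0.37), Ier2 (-0.26), Junb (-0.18), Mfap4 (-0.58), Socs3 (-0.12), Tpsb2 (-1.13) and Zfp36 (-0.44), and in the difference Egr1 (-0.026), Ier2 (-0.18) and Junb (-0.19). After thinning they were Mfap4 (-0.82), Socs3 (-0.045) and, in the difference, Hbb-bt (-0.90), which was -0.87 without the haemoglobin-rich and mast-rich cells. Mfap4 was -1.24 without KO 2 with HET kept in, and -0.15 without KO 2 and 1.55 without KO 1 against WT alone. The cause was not tested. No fit was possible at a B minus A of at least 3, or without WT, KO 1 or KO 2 when HET was left out, since too few libraries remained. No paired analysis was possible because the labels number the KO libraries only. The 13 WT cells limit what could be detected.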
